A study of Mus musculus with 36 samples.

Results

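Egr1, Egr2, Egr3, their corepressors Nab1 and Nab2, and the nuclear receptors Nr4a1, Nr4a2 and Nr4a3 were followed in mouse CD8 T cells recovered from animals with B16 tumors. The 8 genes were taken by symbol from the probe set annotation of the array, out of 18193 genes with at least 1 probe set of a single symbol. They were covered by 19 probe sets. A gene was represented by its brightest probe set (highest mean of 36 arrays), and Egr2 by both of its probe sets, because Egr2 was itself the target of 1 of the hairpins.

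All T cells came from OT-I donors, whose transgenic T cell receptor sees an ovalbumin peptide. They carried a short hairpin RNA (shRNA) against LacZ, the control, or against Ppp2r2d, Egr2, Ptpn2, Arhgap5 or Alk, and were transferred into mice bearing B16, a melanoma line. CD8 T cells recovered afterwards were labelled as coming from spleen or from tumor. Each of the 12 groups of shRNA and tissue label held 3 arrays. The sources used here do not give the recipients' age and strain, the time between transfer and recovery, the number of hairpins per gene or any pooling of animals. Whether the arrays of a group stand for separate mice is unstated too, so p-values measure the spread between these arrays, which may be technical.

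Egr factors are zinc finger transcription factors that are switched on within minutes of T cell receptor engagement, through the MAP kinase and serum response factor route and, for Egr2 and Egr3, also through calcium and NFAT. Egr1 is mostly associated with activation, whereas Egr2 and Egr3 are best known for restraining T cells and for their part in anergy. Nab1 and Nab2 bind Egr factors and repress them, and Nab2 is itself induced by Egr proteins as a feedback. The Nr4a genes encode orphan nuclear receptors that are induced by the same signal, and they are linked to tolerance and to the exhausted state of T cells in tumors.

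RefSeq promoter windows of build GRCm38.p6 were matched by symbol for 6 of the 8 genes, all but Egr1 and Egr3. The 250 bases before the transcript start of Egr2 and of the 3 Nr4a genes are shown because these 4 genes are all known as receptor-induced genes, yet Nr4a1 differed in direction from the rest in the comparison of labels. Capitals mark TGACG, the core of the cyclic AMP response element, on either strand (CGTCA on the printed strand). In Egr2 they also mark a CArG box, the site bound by serum response factor. The windows are chr10:67537619-67537868 (plus strand) for Egr2, chr15:101266596-101266845 (plus) for Nr4a1, chr2:57124004-57124253 (minus) for Nr4a2 and chr4:48045055-48045304 (plus) for Nr4a3.
Egr2: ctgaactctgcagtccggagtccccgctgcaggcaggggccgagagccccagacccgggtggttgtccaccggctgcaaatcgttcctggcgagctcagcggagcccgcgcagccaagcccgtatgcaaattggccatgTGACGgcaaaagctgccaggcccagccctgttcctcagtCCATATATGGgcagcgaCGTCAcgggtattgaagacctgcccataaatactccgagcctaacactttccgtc
Nr4a1: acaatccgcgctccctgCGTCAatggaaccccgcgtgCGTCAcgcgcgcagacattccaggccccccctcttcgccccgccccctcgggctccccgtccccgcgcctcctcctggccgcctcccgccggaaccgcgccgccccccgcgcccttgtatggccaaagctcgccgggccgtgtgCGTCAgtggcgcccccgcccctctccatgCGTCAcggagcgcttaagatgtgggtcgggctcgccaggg
Nr4a2: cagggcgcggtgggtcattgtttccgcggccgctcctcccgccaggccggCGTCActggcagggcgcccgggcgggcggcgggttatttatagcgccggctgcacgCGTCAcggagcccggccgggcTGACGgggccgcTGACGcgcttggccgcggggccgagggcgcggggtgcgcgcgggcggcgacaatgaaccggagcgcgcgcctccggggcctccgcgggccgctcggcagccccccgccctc
Nr4a3: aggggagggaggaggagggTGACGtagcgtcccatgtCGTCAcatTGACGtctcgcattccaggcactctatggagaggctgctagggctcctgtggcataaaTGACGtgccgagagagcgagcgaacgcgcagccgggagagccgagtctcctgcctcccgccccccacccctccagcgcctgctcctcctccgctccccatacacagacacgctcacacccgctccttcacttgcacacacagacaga

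Each Nr4a window held 4 copies of TGACG, a number reached by 0.137% of the 32851 windows of the same length, while 17.8% held at least 1. The 3 Nr4a promoters shared this feature, although Nr4a1 rose in labelled tumor and Nr4a2 fell. The Egr2 window held 2 copies of TGACG and 1 CArG box, found in 1.47% of all windows. Of 5 windows listed for Egr2, 4 held a CArG box, and the one shown is the first of 3 overlapping windows that also held both copies of TGACG. GCGNGGGCG, the Egr binding sequence, occurred 3 times in the window of Nab1 and once in those of Nr4a1 and Nr4a2, against 4.7% of windows with at least 1. The full element TGACGTCA, which contains TGACG, the AP-1 sequence TGANTCA and AAAGGTCA, the sequence bound by Nr4a monomers, were in none of the windows of the 6 genes. All motifs were searched on both strands, and a match is a description of the letters only.

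The values were log2 signals of unstated centring. With array medians from −0.48 to −0.23, a level says nothing beyond its own probe set. Some marker lists ran against the tissue labels. The log2 of the summed signal of 6 melanocyte genes ran from 6.29 to 7.97 under the spleen label (18 arrays) and from 2.12 to 3.34 under the tumor label (18 arrays). That of 8 macrophage genes ran from 5.38 to 8.16 and from 1.78 to 2.72. All 6 and all 8 were called lower in labelled tumor (33.1% of all genes), and all 4 measured B cell genes were called higher (37.6%). Other lists had no common direction. Of 5 stromal and endothelial genes 2 were called higher and 2 lower, of 3 neutrophil genes 0 were called, and of 2 erythroid genes 1 was called higher. The log2 summed signals of T cell genes were alike under both labels (9.13 to 10.1 and 8.44 to 10.2), and 1 of 7 was called different. The labels are therefore quoted as labelled spleen and labelled tumor, and no direction below is assigned to an organ. One array, the first labelled tumor array with the Ptpn2 hairpin, stood apart: its best correlation with another array was 0.905, against 0.968 to 0.994 for the other 35. Its 3′ minus 5′ signal of Gapdh was 2.94 log2, against 0.25 to 1.39 elsewhere. The 8.44 of the T cell genes came from this array. In 3 further arrays the lowest value was high, at −1.45 to −1.38, against −4.51 to −1.88 in the remaining arrays. These were the third labelled tumor Ptpn2 array, the second labelled spleen LacZ array and the second labelled tumor Egr2 hairpin array.

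Between the labels the family split in its direction. Egr1 and Nr4a1 were higher in labelled tumor, by 0.93 and 0.74 log2, while Egr2, Egr3, Nab1, Nab2, Nr4a2 and Nr4a3 were lower, by 0.51 to 1.55 log2. Other probe sets of Nab1 and Nr4a3 turned the direction. A gene was called when its Benjamini-Hochberg adjusted p in limma, fitted over all genes and all 36 arrays, was under 0.05. All 8 genes were called for the mean over the 6 transductions, but so were 70.7% of all genes, 37.6% higher and 33.1% lower. The count by itself therefore says little, and the directions and sizes are what these genes add. The median difference of all genes was 0.13 log2 as deposited, −0.04 after cyclic loess and 0.00 after quantile normalization, and all 8 genes kept their direction under both. In these bulk RNA samples, fewer cells of a type and less RNA per cell cannot be told apart. The melanocyte and macrophage genes moved with the same labels, and their part in these differences was not tested.

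Egr1 (probe set 1417065_at), the family member most tied to acute activation, read 4.91, 5.36 and 6.39 (lowest, median and highest of 18 arrays) in labelled spleen. In labelled tumor it read 5.76, 6.34 and 6.97. The ranges overlapped, with the highest labelled spleen value in a LacZ array. The difference was 0.93 log2 (SE 0.12, limma adjusted p = 3.9e-08), and the labelled tumor mean was the higher one in 6 of 6 transductions.

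Egr2, the hairpin target, went the other way. Its brighter probe set (1427682_a_at) read 3.89, 4.84 and 5.64 in labelled spleen and 0.36, 3.63 and 4.73 in labelled tumor. The second (1427683_at) ran from 3.13 to 5.30 with a median of 4.60, against 1.83, 3.17 and 4.32. Both probe sets overlapped between labels. All 3 labelled spleen arrays with the Egr2 hairpin lay inside the labelled tumor range in both probe sets, as did 2 Arhgap5 arrays and 1 LacZ array in both. In the brighter set 2 Ppp2r2d arrays did so too, and in the second 1 Ptpn2 array. The differences were −1.33 (SE 0.22, limma adjusted p = 5.07e-06) and −1.27 (SE 0.14, adjusted p over all probe sets = 2.22e-09). The lowest Egr2 value, 0.36, came from the Ptpn2 array that stood apart, where the second probe set read 2.94. Without that array the brighter probe set differed by −1.15 (limma adjusted p = 1.08e-07).

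Egr3 (1436329_at), which shares much of its function with Egr2, read 2.57, 3.69 and 4.34 in labelled spleen and 0.59, 2.32 and 3.11 in labelled tumor. The 2 sets of 18 arrays overlapped between 2.57 and 3.11 only. The difference was −1.49 (SE 0.15, limma adjusted p = 4.17e-10). A second, dim Egr3 probe set (1421486_at), with group means between −0.23 and 0.66, gave −0.00 (SE 0.14), so the fall rests on 1 probe set.

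Nab2 (1417930_at) was the only one of the 8 genes whose 18 labelled spleen arrays and 18 labelled tumor arrays did not overlap, a state reached by 7.87% of all genes (6.51% in this direction). It read 2.25, 3.01 and 3.48 in labelled spleen and 0.83, 1.42 and 2.09 in labelled tumor. Every array labelled tumor lay below every array labelled spleen. The difference was −1.55 (SE 0.12, limma adjusted p = 1.13e-12). Its group means in labelled spleen were close together, 2.93 to 3.19 across the 6 transductions.

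Nab1, the other corepressor, gave no single answer. Its brightest probe set (1417624_at) read 3.49, 4.40 and 5.23 in labelled spleen and 3.28, 3.95 and 4.38 in labelled tumor, with wide overlap, and differed by −0.51 (SE 0.11, limma adjusted p = 0.000266). The other 2 probe sets pointed upward, 0.06 (1448781_at, adjusted p = 0.57) and 0.71 (1438819_at, adjusted p = 0.0184), and the mean of the 3 was 0.09 (adjusted p = 0.512). No direction is given for Nab1 as a gene.

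Nr4a1 (1416505_at), the receptor whose induction is widely used as a readout of T cell receptor signalling, read 4.08, 4.49 and 5.19 in labelled spleen and 4.44, 5.23 and 6.08 in labelled tumor. The ranges overlapped. The 6 group means labelled tumor were nonetheless the 6 highest of the 12, and the difference was 0.74 (SE 0.13, limma adjusted p = 9.38e-06).

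Nr4a2 (1455034_at) moved against Nr4a1. It read 5.67, 6.41 and 7.30 in labelled spleen and 4.55, 5.56 and 6.42 in labelled tumor, with a difference of −0.91 (SE 0.14, limma adjusted p = 2.14e-06). The ranges overlapped, but the 6 labelled spleen group means were the 6 highest. All 6 Nr4a2 probe sets gave the same direction, from −0.88 to −1.67, and each was called over all probe sets.

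Nr4a3 (1438796_at) had the highest adjusted p of the 8. It read 5.93, 6.59 and 7.24 in labelled spleen and 1.30, 6.18 and 6.79 in labelled tumor. Most arrays of the labels overlapped, and the low tail was made of single arrays: 1.30 with the Ptpn2 hairpin (the array that stood apart), 4.24 with the Egr2 hairpin and 4.38 with LacZ. The difference was −0.82 (SE 0.30, limma adjusted p = 0.0186), −0.54 without the Ptpn2 array (adjusted p = 0.00968) and −0.60 after cyclic loess (adjusted p = 0.0672). The other 2 probe sets disagreed, at −1.58 (1421079_at, adjusted p = 9.75e-09) and 0.23 (1421080_at, adjusted p = 0.0955).

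**Figure D1:**
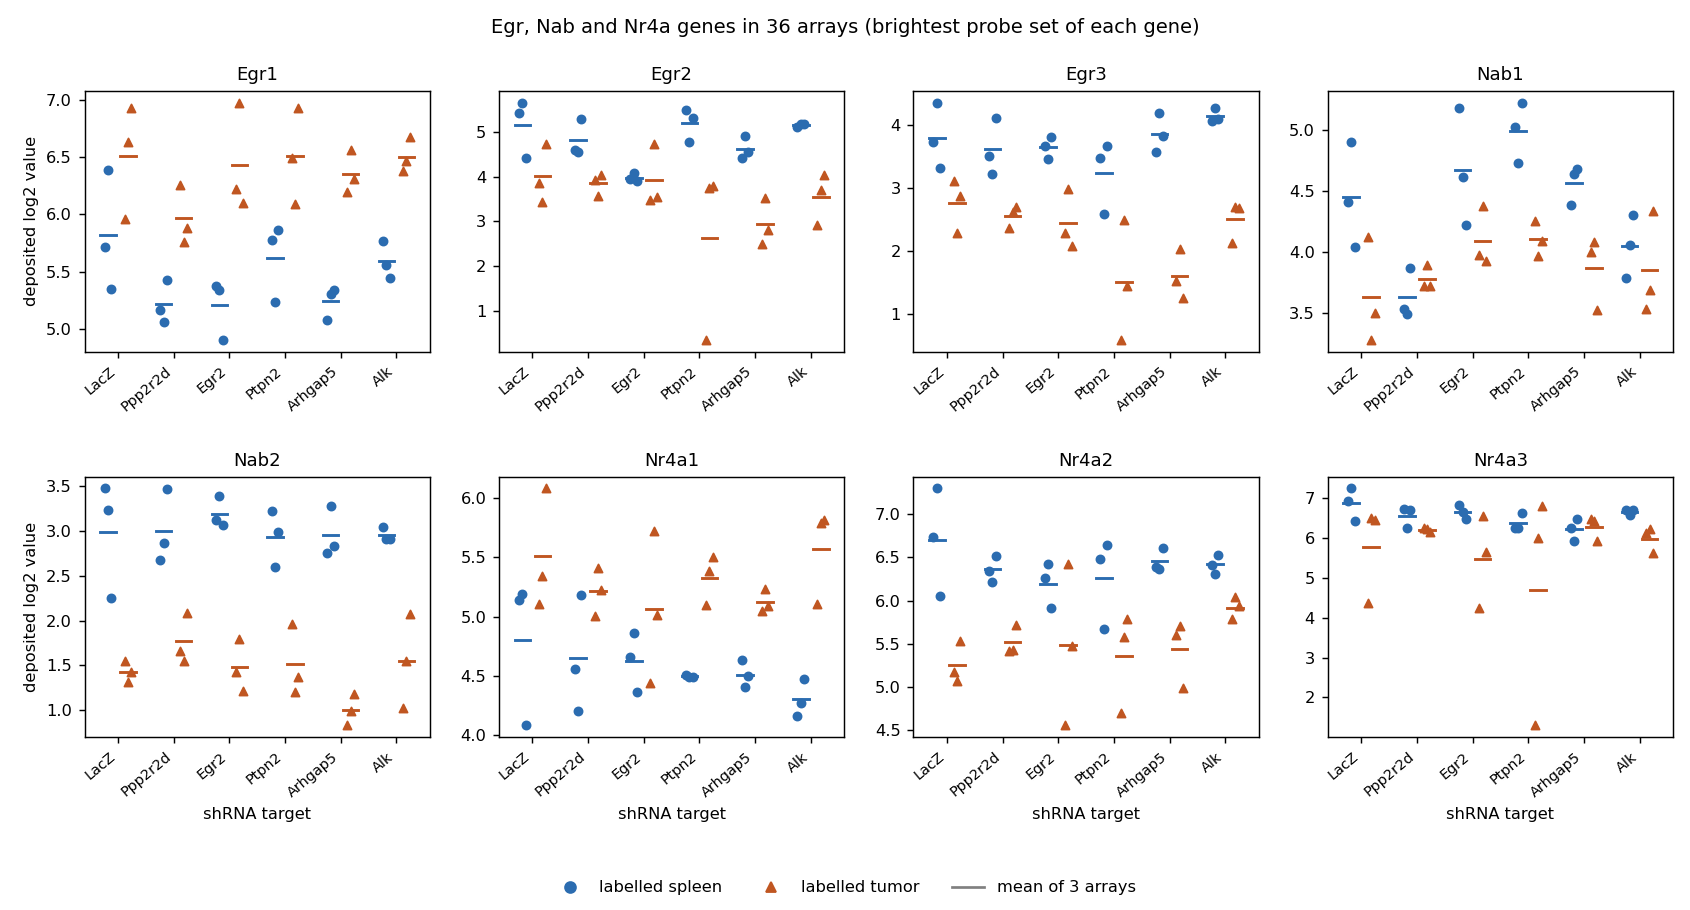
Deposited log2 value (y axis) of the brightest probe set of each of the 8 genes in all 36 arrays, by shRNA target (x axis); circles are labelled spleen, triangles labelled tumor, and bars the mean of 3 arrays. Nab2 separates the labels in every array, Egr1 and Nr4a1 run upward, and single low arrays with the Ptpn2 hairpin set the bottom of the Egr2 and Nr4a3 panels.

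Within single transductions, 26 of the 48 pairs of gene and transduction were called, 6 higher and 20 lower in labelled tumor, against 34.8% of all pairs of gene and transduction. The share of all genes called was 25.2% with LacZ, 22.6% with Ppp2r2d, 26.4% with Egr2, 49.2% with Ptpn2, 32.3% with Arhgap5 and 53.2% with Alk. The median difference of all genes also varied, from −0.48 with LacZ to 0.34 with Alk. Nab2 and Egr3 were called lower in all 6 transductions, Nab2 by 1.23 log2 (Ppp2r2d) to 1.96 (Arhgap5) and Egr3 by 1.04 (LacZ) to 2.25 (Arhgap5). In each transduction the Nab2 call held under 46 of 46 alternatives in processing. That of Egr3 held under 38 of 47 with LacZ, 41 with Ppp2r2d, 41 with Egr2, 45 with Ptpn2, 46 with Arhgap5 and 46 with Alk. In LacZ, the control, Nab2 read 3.48, 3.24 and 2.25 in labelled spleen and 1.55, 1.31 and 1.43 in labelled tumor. Egr3 there read 3.72, 4.34 and 3.31 against 3.11, 2.28 and 2.86. Neither gene overlapped between the labels in LacZ, as was so for 20.4% of all genes in this direction, and the differences were −1.56 (SE 0.30, limma adjusted p = 0.000155) and −1.04 (SE 0.37, adjusted p = 0.0366).

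Egr1 was called higher with the Egr2 (1.23), Ptpn2 (0.88), Arhgap5 (1.11) and Alk (0.91) hairpins, and had a positive difference of 0.69 with LacZ and 0.75 with Ppp2r2d. Nr4a1 was called higher with Ptpn2 (0.83) and Alk (1.27), with 0.43 to 0.70 in the others. With the Alk hairpin Nr4a1 read 4.16, 4.27 and 4.48 in labelled spleen and 5.11, 5.79 and 5.82 in labelled tumor, with no overlap (44.8% of all genes in this direction). Nr4a2 was called lower with LacZ (−1.44), Ptpn2 (−0.91) and Arhgap5 (−1.02). The Ptpn2 call of Nr4a2 was lost without the array that stood apart (−0.58, limma adjusted p = 0.193). Nab1 was called lower with LacZ (−0.82) and Ptpn2 (−0.89) by its brightest probe set. Probe set 1448781_at was called lower with Ptpn2 too (−0.66, adjusted p over all probe sets = 0.0242), gave 0.24 with LacZ and was called higher with Ppp2r2d (0.75, adjusted p = 0.0183). Nr4a3 was called in none of the 6, with differences from −1.68 (Ptpn2) to 0.06 (Arhgap5). Without the array that stood apart its Ptpn2 difference was 0.01. With the Egr2 hairpin Nr4a3 differed by −1.17 (limma adjusted p = 0.249), which was called without that array (adjusted p = 0.0379).

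Egr2 was called lower with the Ptpn2 (−2.55), Arhgap5 (−1.68) and Alk (−1.61) hairpins by its brighter probe set, and with those 3, LacZ (−1.32) and Ppp2r2d (−1.49) by the second. The Ptpn2 value was −1.42 (limma adjusted p = 0.00841) without the array that stood apart. In the brighter probe set LacZ (−1.15, limma adjusted p = 0.124) and Ppp2r2d (−0.97, adjusted p = 0.248) were not called. Without the array that stood apart both were called at the same differences (limma adjusted p = 0.016 and 0.0496). The smallest differences were with the Egr2 hairpin itself, where the 2 probe sets differed between labels by −0.05 (95% interval −1.16 to 1.06) and 0.20 (SE 0.34). There the brighter probe set read 3.94, 4.08 and 3.89 in labelled spleen and 3.49, 4.73 and 3.54 in labelled tumor. A label difference of Egr2 was thus not detected in the group in which Egr2 was targeted. The 4.73 came from the second labelled tumor array, 1 of the 3 arrays with a high lowest value. Without those 3 arrays the median label difference of all genes with this hairpin went from 0.25 to −0.16. The remaining labelled tumor values of the brighter set, 3.49 and 3.54, lay below all 3 labelled spleen values, so the −0.05 rests on the 4.73. In the second probe set the same arrays read 3.19 and 3.39, within the labelled spleen range of 3.13 to 3.50.

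**Figure D2:**
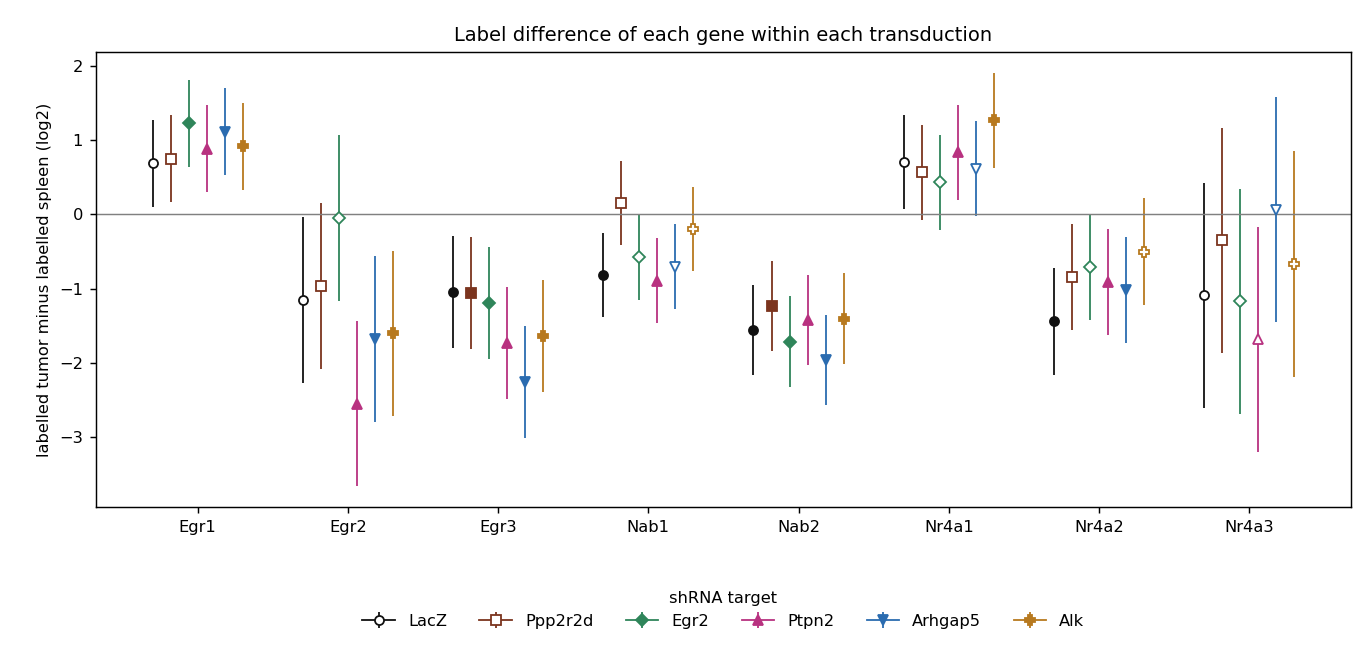
Difference of each gene between labelled tumor and labelled spleen (y axis, log2; symbol with 95% interval from limma) for the 8 genes (x axis) within each transduction; filled symbols passed the adjusted threshold. Nab2 and Egr3 lie below 0 with filled symbols in all 6 transductions, and the green Egr2 hairpin symbol of Egr2 sits at −0.05.

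Whether the Egr2 hairpin lowered its own target was asked first against LacZ. In labelled spleen the brighter probe set read 3.94, 4.08 and 3.89 with the Egr2 hairpin and 5.43, 5.64 and 4.40 with LacZ. The second read 3.46, 3.50 and 3.13 against 4.85, 5.30 and 4.21. Neither probe set overlapped between the groups, a state that 12.1% of all genes reached in this direction. The differences were −1.19 (SE 0.55, 95% interval −2.30 to −0.08, limma adjusted p = 0.207) and −1.43 (SE 0.34, adjusted p over all probe sets = 0.021), so the second probe set was called and the brighter was not. The SE of the brighter set was estimated over all 36 arrays, the one that stood apart included. Without that array its SE was 0.36 for Ptpn2 against LacZ in labelled spleen. Without each array in turn the limma adjusted p for the Egr2 hairpin ran from 0.055 to 0.476.

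All 15 other labelled spleen arrays, LacZ and 4 other hairpins, lay above the 3 Egr2 hairpin arrays in both probe sets. Of all genes, 0.291% lay in this way below the 12 arrays of the 4 other hairpins. In the brighter set they ran from 4.40 to 5.64 with a median of 5.11, and in the second from 3.96 to 5.30 with a median of 4.68. Against the mean of the 4 other hairpins, which leaves LacZ out, Egr2 differed by −0.97 (SE 0.43, unadjusted p = 0.0313, limma adjusted p = 0.873) and by −1.19 in the second probe set (adjusted p = 0.0518). With only the labelled spleen hairpin groups in the fit, the adjusted p of the brighter set was 0.00928, and with array weights it was 0.0359.

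In labelled tumor no such separation was seen. The brighter probe set read 3.49, 4.73 and 3.54 with the Egr2 hairpin and 3.86, 3.43 and 4.72 with LacZ, and the second 3.19, 4.09 and 3.39 against 3.05, 3.03 and 4.32. The groups overlapped in both. The differences from LacZ were −0.08 (SE 0.55, limma adjusted p = 0.952) and 0.09 (SE 0.34, adjusted p = 0.927). Without each array in turn the difference of the brighter set ran from −0.49 to 0.27. Against the 4 other hairpins the brighter set differed by 0.68 (SE 0.43, unadjusted p = 0.127) and was not called by limma, and the highest of its 3 arrays was the highest of all 18 labelled tumor arrays. Without the Ptpn2 array that stood apart this difference was 0.39. The change in label difference between the Egr2 hairpin and LacZ, tested as an interaction, was 1.10 (SE 0.77) and 1.52 (SE 0.48, adjusted p over all probe sets = 0.165), and neither was called. In that interaction limma called 0 of 18193 genes, with 3370 at an unadjusted p under 0.05, and the median of all genes was 0.43.

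**Figure D3:**
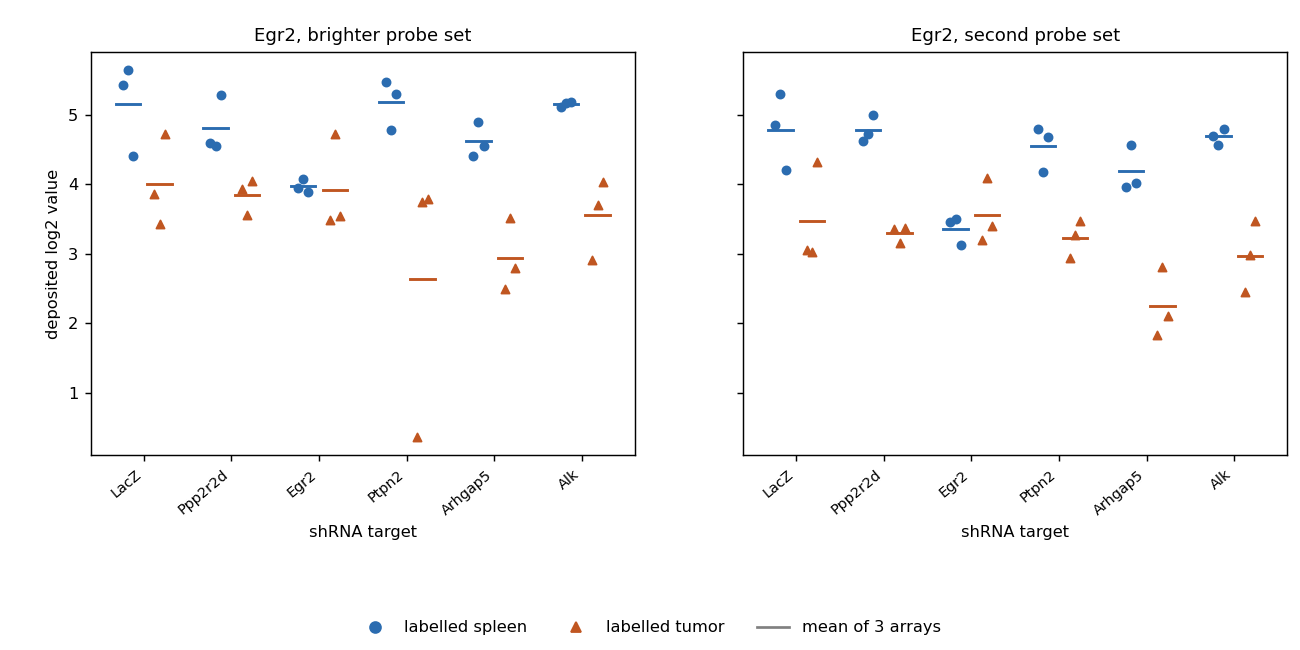
Deposited log2 value (y axis) of the 2 Egr2 probe sets in all 36 arrays, by shRNA target (x axis); circles are labelled spleen, triangles labelled tumor, bars the mean of 3 arrays. The 3 labelled spleen arrays with the Egr2 hairpin lie below the other 15 in both panels, at 3.89 to 4.08 and 3.13 to 3.50.

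Over all 8 genes and 5 hairpins, Egr2 and its own hairpin included, 1 of 40 pairs was called against LacZ in labelled spleen, where 8.39% of all pairs of gene and hairpin were. An unadjusted p under 0.05 was found for 4, namely that call, Egr2 with its own hairpin, and Egr1 with the Egr2 hairpin (−0.61, limma adjusted p = 0.219) and with Ppp2r2d (−0.60, adjusted p = 0.156). The call was Nab1 with the Ppp2r2d hairpin, which read 3.53, 3.49 and 3.87 against 4.41, 4.91 and 4.04 with LacZ. The groups did not overlap (16.4% of all genes in this direction, with 12.8% called for this hairpin), and the difference was −0.83 (SE 0.28, limma adjusted p = 0.0461). That call was lost in 20 of the 36 fits that each left out 1 array, and the other Nab1 probe sets gave −0.47 (1448781_at, no overlap, adjusted p = 0.17) and 0.58 (1438819_at, adjusted p = 0.519).

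The differences of Egr1 from LacZ in labelled spleen ran from −0.61 to −0.19, those of Egr3 from −0.56 to 0.34 and those of Nab2 from −0.06 to 0.20. For Nr4a1 they ran from −0.50 to −0.16, for Nr4a2 from −0.50 to −0.24 and for Nr4a3 from −0.65 to −0.21. The 5 hairpins thus stood below LacZ for Egr1 and all 3 Nr4a genes without a call, and the 5 differences share the LacZ arrays. The median of all genes stood below LacZ too, at −0.24 to −0.15 over the 5 hairpins. Without the 3 arrays with a high lowest value, 1 of them a labelled spleen LacZ array, those medians were 0.02 to 0.09. In labelled tumor the ranges were −0.54 to 0.00 for Egr1, 0.15 to 0.47 for Nab1, −0.43 to 0.34 for Nab2, −0.45 to 0.06 for Nr4a1, 0.10 to 0.66 for Nr4a2 and −1.08 to 0.50 for Nr4a3.

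In labelled tumor limma called 0 of 40 pairs, against 0.432% of all pairs, and 3 had an unadjusted p under 0.05. These were Egr2 with the Ptpn2 hairpin (−1.37, adjusted p = 0.19) and Egr3 with Ptpn2 (−1.25, adjusted p = 0.0999) and Arhgap5 (−1.15, adjusted p = 0.43). Without the array that stood apart the Ptpn2 values were −0.23 for Egr2 (limma adjusted p = 0.808) and −0.79 for Egr3 (adjusted p = 0.494). Egr3 read 0.59, 2.49 and 1.43 with Ptpn2 and 1.52, 2.03 and 1.25 with Arhgap5, against 3.11, 2.28 and 2.86 with LacZ. The Arhgap5 arrays lay below all 3 LacZ arrays (3.17% of all genes), and the Ptpn2 arrays overlapped them. The label differences of the 8 genes were compared between each hairpin and LacZ by interaction terms, and limma called 0 of 40 (2 with an unadjusted p under 0.05), against 9.26% of all pairs. Between the Egr2 hairpin and the 4 other hairpins it called 0 of 16 over both labels (1 with an unadjusted p under 0.05, Egr2 in labelled spleen), against 0.168%. The 5 comparisons under a label share the same 3 LacZ arrays.

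Ordered by group mean, the 12 groups fell into label blocks for 5 of the 8 genes. The 6 highest groups were all labelled tumor for Egr1 and Nr4a1 and all labelled spleen for Egr3, Nab2 and Nr4a2. For Egr2 the first 5 were labelled spleen, from Ptpn2 (5.18 ± 0.36, SD, n = 3) and LacZ (5.16 ± 0.66) through Alk (5.16 ± 0.04) and Ppp2r2d (4.81 ± 0.41) to Arhgap5 (4.62 ± 0.25). LacZ labelled tumor (4.00 ± 0.66) stood just above the Egr2 hairpin labelled spleen group (3.97 ± 0.10) and labelled tumor group (3.92 ± 0.70). Below them came Ppp2r2d (3.85 ± 0.26), Alk (3.55 ± 0.58), Arhgap5 (2.94 ± 0.52) and Ptpn2 (2.63 ± 1.97) labelled tumor. Without the array that stood apart the Ptpn2 labelled tumor mean was 3.77 (n = 2). Nab1 and Nr4a3 mixed the labels: Nab1 had 4 labelled spleen groups in its first 6 and its lowest mean in the Ppp2r2d labelled spleen group. For Nr4a3 the Arhgap5 labelled tumor group stood sixth, just above the Arhgap5 labelled spleen group. Of the 11 steps between neighbours in the order of Egr2, 10 were within the larger SD of the pair. For the other genes it was 9 to 11 of 11.

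The genes varied together within groups. After the group means were removed, the 28 pairs among the 8 genes had a median correlation of 0.47 over the 36 arrays, from −0.25 to 0.78. The same measure between these genes and all others had a median of 0.29 (quartiles 0.09 and 0.50), so much of it was common to the arrays. Over the 12 group means Egr3 had a correlation of 0.90 with Egr2, Nr4a2 0.81 and Nab2 0.81, while Egr1 had −0.67 and Nr4a1 −0.74. Within a label the values differed from these: Nab2 and Egr2 had −0.87 over the 6 labelled spleen groups and 0.44 over the 6 labelled tumor groups. Egr3 and Egr2 had 0.04 over the labelled spleen groups and 0.965 over the labelled tumor groups (0.812 without the array that stood apart). After the group means were removed Egr2 and Egr3 had 0.775 over the 36 arrays (0.733 without that array). The 5 genes outside the family most like Egr2 over the 12 groups were picked from 16322 candidates, so high values follow in part from the search. They were Farsb (0.945), Copb1 (0.945), Lypla1 (0.937), Ube3a (0.937) and Ei24 (0.936). Of these, Copb1, a subunit of the vesicle coat, was also above 0.9 within each label (0.93 and 0.90 over 6 groups). The labelled tumor means used here include the array that stood apart. The points share arrays and normalization.

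The regulators upstream of the family divided evenly. Of 17 calcium, NFAT, MEF2 and serum response factor regulators, 7 were called higher and 7 lower in labelled tumor, beside 37.6% higher and 33.1% lower among all genes, shares that these counts lie near. Their median difference was −0.09, beside 0.13 for all genes. The largest falls were Crem (−2.07), a cyclic AMP responsive repressor, Elk3 (−1.43), a partner of serum response factor, and Nfatc1 (−0.996). The largest rises were Mef2d (1.21), Nfatc2 (0.995) and Mef2a (0.68). The NFAT genes Nfatc1 and Nfatc2 thus went opposite ways with near equal size. Srf itself was called higher by 0.37 (limma adjusted p = 0.021).

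Genes reported as Egr2 or Egr3 targets in T cells mostly followed Egr2 and Egr3 in direction. Of 18, 12 were called lower and 4 higher in labelled tumor (33.1% and 37.6% of all genes), with a median of −1.67 beside 0.13. The chemokine Ccl1 (−7.09), the calmodulin binding protein Nrgn (−6.73) and the inhibitory receptor Lag3 (−5.31) fell most. The signalling inhibitors Socs3 (2.23) and Socs1 (0.42) and the diacylglycerol kinase Dgka (1.39), which damps receptor signalling, rose. Cblb and Itch, ubiquitin ligases of anergy, were not called (0.04 and 0.05). Of 11 measured genes linked to Nr4a factors, 10 were called lower and 1, Runx3 (0.36), higher (33.1% and 37.6% of all genes), with a median of −2.55. The inhibitory receptors Pdcd1 (−7.49), Havcr2 (−5.51) and Cd244a (−3.89) fell most, and Tox, a regulator of the exhausted state, fell by 1.63.

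Other immediate early genes mostly moved with Egr1 and Nr4a1. Of 20, 14 were called higher and 2 lower in labelled tumor (37.6% and 33.1% of all genes), with a median of 0.73. The AP-1 subunits Fosb (1.93) and Jun (1.50) and the early gene Ier2 (1.67) rose most. Ier3 (−3.55) and the MAP kinase phosphatase Dusp4 (−2.93) fell, as Egr2 and Egr3 did. The lists were drawn up with earlier results of these arrays known, so their counts describe them and give no independent support. The melanocyte and macrophage genes were lower in labelled tumor, as most of the Egr and Nr4a linked genes were, and their part in the lists' differences was not tested.

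**Figure D4:**
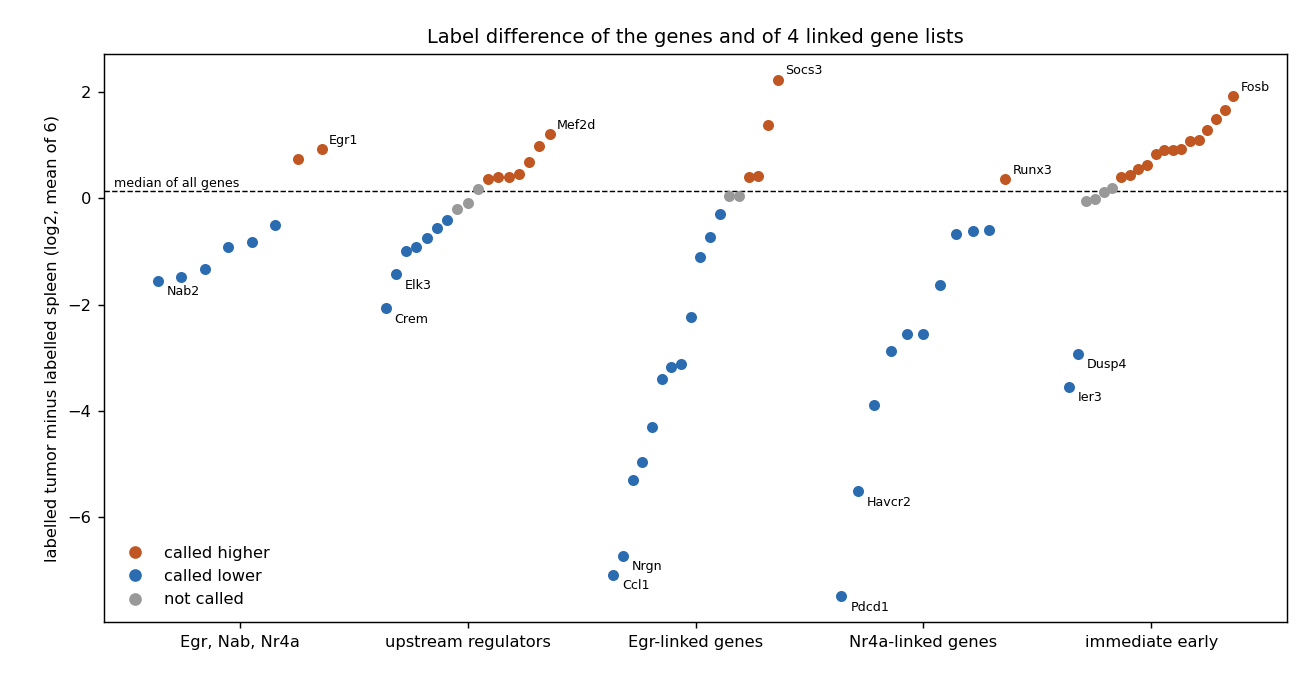
Difference between labelled tumor and labelled spleen (y axis, log2, mean of 6 transductions) for the 8 genes and for 4 gene lists (x axis), each point a gene in order of size; orange points were called higher, blue lower and grey not, and the dashed line is the median of all genes, 0.13. The genes linked to Nr4a lie below the line in all but 1 case, and immediate early genes lie mostly above it.

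With the Egr2 hairpin, 1 of the 18 reported Egr targets was called against LacZ under each label, the cell cycle inhibitor Cdkn1a, while 3.23% of all genes were called in labelled spleen and 0.0275% in labelled tumor. In labelled tumor Cdkn1a read 0.45, 1.30 and 1.29 with the Egr2 hairpin and 2.11, 2.46 and 2.91 with LacZ, without overlap (0.539% of all genes in this direction). It differed from LacZ by −1.48 (SE 0.27, limma adjusted p = 0.0199) and from the 4 other hairpins by −1.33 (SE 0.21, adjusted p = 0.00266), where 0.055% of all genes were called. In labelled spleen it read 3.90, 3.84 and 3.61 against 4.61, 5.21 and 4.40, a difference of −0.96 (SE 0.27, limma adjusted p = 0.0447). Cdkn1a was thus lower under the label in which no fall of Egr2 was detectable as well as under the other. The labelled tumor calls were lost with only the compared groups in the fit (adjusted p = 0.978 and 0.235) and without the first Egr2 hairpin array (0.356 and 0.17), and the call against LacZ also without the second (0.0941) or the third (0.327) LacZ array and with the mean of all probe sets (0.138). The labelled spleen call was lost under 24 of 46 alternatives.

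Of the genes linked to Nr4a, 1 of 11 was called with the Egr2 hairpin, Entpd1, an ectonucleotidase of exhausted T cells, which was higher in labelled spleen by 1.17 (SE 0.28, limma adjusted p = 0.0204). It was also called higher with Ptpn2 (1.24; 9.58% of all genes called) and Arhgap5 (1.13; 8.89%), and against the 4 other hairpins the Egr2 group differed by 0.34 (SE 0.22) and was not called. Macrophage genes stood higher in these groups, but not only there. The log2 of their summed signal was 6.61 to 6.94 with the Egr2 hairpin, 6.52 to 6.66 with Ptpn2 and 6.01 to 7.10 with Arhgap5, against 5.38 to 6.00 with LacZ. Of the 8, 2, 1 and 2 were called higher than LacZ. With Alk it was highest, at 7.70 to 8.16, and 7 of 8 were called. Entpd1 was not called there (0.55, limma adjusted p = 0.2). With Ppp2r2d it was 5.69 to 6.42 and 0 of 8 were called, and Entpd1 was not called either (0.41, limma adjusted p = 0.299). The part of macrophage genes in the Entpd1 differences was not tested. With the Ptpn2 hairpin in labelled tumor, 3 of the 18 reported Egr targets were called higher than LacZ (0.764% of all genes were called). The largest were Nrp1 (2.63) and Lag3 (2.33), both surface receptors, and Havcr2 of the genes linked to Nr4a was called higher too (1.42). Without the array that stood apart these were 2.47, 2.05 and 1.57, all called. The calls of Nrp1 and Lag3 were each lost under 1 of 46 alternatives (highest limma adjusted p = 0.272 and 0.555). Those of Havcr2 and of Nrn1, the third Egr target, were each lost under 4 of 46 (highest adjusted p = 0.745 for both). With only the compared groups in the fit, 4 genes were called higher in this comparison and 0 lower.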

How the data were processed

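RNA was extracted with Trizol and amplified in 1 cycle for an Affymetrix mouse array, per the labels' protocols. The authors deposited 1 log2 value per probe set and array, and RMA is the only tool in the submitters' processing notes, with no version. No detection calls were used. Of 45101 probe sets, 64 were controls, 34945 carried 1 gene symbol, 932 carried several and for 9160 the annotation gave none here, so that 18193 genes were tested. Symbols came from the platform annotation, and 18031 are current in the reference table.

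Values were fitted with limma 3.58.1 in R 4.3.3, with 1 coefficient for each of the 12 groups over all 36 arrays and no covariate. The tests were two-sided, with Benjamini-Hochberg adjustment over all genes, or over all probe sets for second probe sets, and a threshold of 0.05. In simulated data of these groups, 8 of 50 genes changed by 1 log2 and 36 of 50 changed by 2 log2 were called for the Egr2 hairpin against LacZ in labelled spleen. The simulated noise was independent between genes, whereas the deviations of the real arrays were correlated. These rates are therefore not the power for Egr2 in these arrays. The 8 genes and the lists were chosen with earlier results of these data known. All 8 genes were tested in every comparison. Up to 3 called genes of each list are named per direction; Srf, Cblb, Itch and Tox were named after their values were seen. Alternatives covered the probe set rule, a filter on dim genes, scaling, the arrays in the fit, array weights, replicate blocks and a fold limit.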

Additional observations from a re-analysis of the deposited data

How the results depend on the processing

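All 8 genes stayed called between the labels without each array in turn (8 to 8) and in the mean of the 5 hairpins without the 6 LacZ arrays, which was chosen after seeing the data. With an absolute log2 difference of at least 1 required, 3 of the 8 remained past the threshold. The 26 pairs of gene and transduction became 24 to 30 without each array in turn. Of the 35 called differences of the 8 genes, 33 were called in the same direction after cyclic loess, 32 after quantile normalization, 35 with the filter on dim genes and 24 with only the compared groups in the fit.

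For hairpins against LacZ in labelled spleen the 1 call became 0 with a log2 difference of at least 1, the mean of all probe sets, only the compared groups, array weights or without the 3 arrays of highest lowest value, 2 after cyclic loess or quantile normalization, and 0 to 1 without each array in turn. In labelled tumor the 0 calls became 3 (cyclic loess), 2 (quantile), 7 (array weights), 1 (without those 3 arrays) and 0 to 2 without each array in turn, with 2 only without the second Ptpn2 array. The 0 interaction calls became 1 with array weights and 0 to 1 without each array in turn, the 1 being Egr2 with Ptpn2 (−1.95, limma adjusted p = 0.0442) without the second labelled tumor Ptpn2 array, which leaves the array that stood apart as 1 of 2 in its group. Without that array this interaction was −0.26 (adjusted p = 0.787). The 0 calls against the 4 other hairpins became 1 with only the compared groups or array weights, and stayed 0 (0 to 0) without each array in turn.

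For Egr2 with its own hairpin in labelled spleen, the difference from LacZ was −1.43 in the second probe set, which was called, and −1.57 to −0.95 without each array in turn. Against the 4 other hairpins it was −0.97 with only the compared groups and −1.03 with array weights, both called, and −1.03 to −0.91 without each array in turn. In labelled tumor the difference from LacZ turned to 0.0039 in the mean of both probe sets and to 0.0928 in the second, and ran from −0.49 to 0.27 without each array in turn. Against the 4 other hairpins it ran from 0.27 to 0.89.

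Other probe sets turned some directions. Egr3 gave 0.18 with the Egr2 hairpin and 0.46 with Ptpn2 (1421486_at). Nab1 gave 0.0876 (mean of all probe sets), 0.0609 and 0.71 over the 6 transductions, 0.30, 0.24 and 1.49 with LacZ, 0.35 with Ptpn2, and 0.58 for Ppp2r2d against LacZ in labelled spleen. Nr4a3 gave 0.23 (1421080_at). The cause of these changes was not tested.

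Arrays with the same number showed no steady pairing. Over 18 same-numbered pairs across the labels within a transduction, deviations correlated from −0.24 to 0.24, and 4 pairs were over 0.1. The labels do not say whether such arrays share a mouse, and with so few arrays a group these correlations cannot exclude it. With the replicate number as a block the counts were 8 genes, 26 label pairs and 0 calls against LacZ in labelled spleen, and Egr2 with its own hairpin differed from LacZ by −1.19 and −0.08. With the pairs as a random block (correlation −0.035) no count changed. With 3 arrays a group, their number limits the precision.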
